A study of Mus musculus with 26 samples.

Results

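The S100 genes described here are S100a1, S100a4, S100a6, S100a8, S100a9, S100a10, S100a11 and S100a13, 8 of the 61461 genes listed in any of the deposited count tables. They were found by gene symbol in the bone marrow monocyte and small peritoneal macrophage (SPM) tables, and by the same gene identifier in the lung macrophage table. All 8 were among the 17792 genes kept when the 26 samples were fitted together. The study asked how loss of ACKR2, an atypical chemokine receptor that takes up and degrades inflammatory CC chemokines, affects monocyte-derived cells of naïve mice. RNA was sequenced in bulk from sorted cells of young adult female mice, with 4 WT and 4 ACKR2-/- samples of monocytes, 4 and 4 of SPMs, and 5 and 5 of lung macrophages.

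WT animals were purchased C57BL/6J mice and ACKR2-/- animals came from a colony bred in house, so genotype and colony cannot be told apart. The ACKR2-/- deletion was present in all cells, and no other allele or agent was given in the labels. Monocytes were sorted from bone marrow as Ly6C+ CD11b+ cells negative for Ly6G, SiglecF and F4/80. SPMs were sorted from peritoneal lavage as CD11b+ MHCII+ cells with intermediate F4/80. Lung cells were sorted as F4/80+ CD11b+ cells without MHCII, Ly6C, Ly6G or SiglecF. Each monocyte and SPM sample pooled cells of several mice, while the number of mice behind a lung sample was not given in the sources used here. P-values therefore measure the spread between these samples, part of which may be technical.

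S100 proteins are small calcium sensors with paired EF-hand motifs that usually act as dimers, inside the cell on partner proteins and outside it as danger signals. S100a8 and S100a9 form the heterodimer calprotectin, which is stored in quantity in neutrophils and monocytes, binds zinc and manganese, and is lost as monocytes mature into macrophages. The other members described here are broadly expressed: S100a10 pairs with annexin A2, S100a11 with annexin A1, S100a4 with nonmuscle myosin, and S100a6 with the calcyclin-binding protein Cacybp. S100a13 takes part in the release of Fgf1 and Il1a, and S100a1 is best known from muscle.

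All 8 genes lie on chromosome 3 of GRCm38. S100a1 (chr3:90511034-90514392, minus strand), S100a13 (chr3:90514435-90524581, plus), S100a4 (chr3:90603771-90606045, plus), S100a6 (chr3:90612882-90624181, plus), S100a8 (chr3:90668978-90670035, plus) and S100a9 (chr3:90692632-90695721, minus) fall within 184688 bases. S100a11 (chr3:93520488-93526287, plus) and S100a10 (chr3:93555080-93564643, plus) form a separate pair. S100a1 and S100a13 start 43 bases apart on opposite strands, and the starts of S100a8 (ENSMUSG00000056054) and S100a9 (ENSMUSG00000056071) are 26743 bases apart. In the matching GENCODE M21 annotation, S100a4 shared 302 of its 584 exonic bases with Gm42674, which had 0 counts in every sample, and the other 7 members shared no exonic base with another gene.

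Start regions of 4 members are shown because the myeloid pair and S100a4 carry a TATA-type motif while S100a11 does not. The sequences come from RefSeq (GRCm38.p6), where 7 of the 8 members were matched. Motif distances are counted from the RefSeq starts. These differ from the gene starts given above by 93 bases for S100a8, 8 for S100a11, 1 for S100a4 and 0 for S100a9. Each runs 5′ to 3′ on the gene's strand, from 120 bases before the annotated start to the first 6 bases after it, with matches to TATAAA, TGNNGCAA or GGGCGG in capitals.
S100a8, chr3:90668951-90669076, plus strand: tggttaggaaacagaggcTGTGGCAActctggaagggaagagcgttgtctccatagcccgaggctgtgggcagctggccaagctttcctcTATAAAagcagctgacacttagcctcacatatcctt
S100a9, chr3:90695716-90695841, minus strand: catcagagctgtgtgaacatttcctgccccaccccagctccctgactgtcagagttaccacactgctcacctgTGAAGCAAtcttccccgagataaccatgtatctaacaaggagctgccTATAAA
S100a4, chr3:90603650-90603775, plus strand: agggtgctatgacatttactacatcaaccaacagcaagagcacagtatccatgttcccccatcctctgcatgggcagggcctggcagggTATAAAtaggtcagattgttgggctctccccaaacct
S100a11, chr3:93520376-93520501, plus strand: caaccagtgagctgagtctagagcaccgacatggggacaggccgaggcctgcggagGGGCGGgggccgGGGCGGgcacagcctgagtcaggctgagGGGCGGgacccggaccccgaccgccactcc

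Motifs were counted on both strands in windows of 300 bases, 250 before and 50 after the start, and compared with 32851 such windows. TATAAA was found in 3 of the 7 members (S100a4, S100a8 and S100a9) and in 13.6% of all windows. It began 30 bases before the RefSeq start of S100a8, 31 before that of S100a4 and at the annotated first base of S100a9. The S100a8 match (chr3:90669041-90669046) lies after the S100a8 gene start given earlier, and so inside that gene model. TGNNGCAA, the C/EBP half-site pattern with an open spacer, was found in 4 members (S100a1, S100a8, S100a9 and S100a13) and in 11.4% of windows. The related pattern TTNNGCAA was present in S100a9 alone and in 10.8% of windows. The ETS core GGAAGT was found in 6 members and 23.8% of windows. The windows of the divergent S100a1 and S100a13 overlap, and each pair of their TGNNGCAA and GGAAGT matches is 1 stretch of bases read from both sides. The GC box GGGCGG was found in S100a9 and S100a11 and in 35.7% of windows. S100a11 held 3 GC boxes, at 64, 52 and 24 bases before its start. These matches describe letters in a window and were not tested for binding.

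Counts assigned to genes ranged from 15450670 to 19218213 per monocyte sample and from 19950019 to 29770252 per lung sample. SPM samples ranged from 12781144 to 29474570 in WT and from 27021524 to 35400034 in ACKR2-/-, so most ACKR2-/- SPM libraries were deeper than WT. Values below are CPM (read counts relative to the library's total) scaled within each cell type's table by TMM, a trimmed-mean normalisation. These CPM were not scaled between cell types. Comparing them across cell types can therefore give another direction than the fit of all 26 samples, which does scale between them. Ackr2 itself gave 0, 0, 2 and 0 reads in WT monocytes and 0 in all 4 ACKR2-/- monocyte samples, too few to check those labels. WT SPMs had 5, 8, 7 and 9 reads and ACKR2-/- SPMs had 0 in all 4. In lung, 4 WT samples had 22.1, 17.7, 7.75 and 14.6 CPM, ACKR2-/- samples had 0.282 to 1.64 CPM, and the library labelled WT lung macrophages replicate 5 had 0 reads. Sftpc, an alveolar epithelial gene, was 207 CPM in that library and 3429 to 8610 CPM in the other 4 WT samples. The ACKR2-/- sample with the lowest Ackr2, replicate 4, also had low Sftpc (181 CPM). Whether the label of WT replicate 5 is right was not tested. Tests of the 8 members that involve lung, and the lung order of their levels, are therefore given with and without WT replicate 5. Lung results for other genes and for gene lists are given with that library only.

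Marker genes matched the monocyte and SPM labels in part. Ly6c2 was 5856 ± 533 CPM in WT monocytes (SD, n = 4) against 42.3 ± 17.7 in WT SPMs, and the MHCII gene H2-Ab1 was 34751 ± 3719 CPM in WT SPMs against 107 ± 7.63 in WT monocytes. The monocyte samples also held neutrophil and granulocyte progenitor transcripts at high level, although Ly6G+ cells had been gated out. The lung samples held Sftpc, an alveolar epithelial gene, at 181 to 10145 CPM, and H2-Ab1 at 253 to 1708 CPM in all but the library labelled WT replicate 3, where it reached 21242 CPM. The 2 lung libraries with Sftpc near 200 CPM, WT replicate 5 (207) and ACKR2-/- replicate 4 (181), were also those with the lowest S100a8 and S100a9. In bulk RNA, fewer cells of a type and less RNA per cell cannot be told apart.

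S100a8 and S100a9, the calprotectin subunits, were by far the most abundant members in monocytes and were low in both macrophage populations. In WT monocytes S100a8 was 12527, 22329, 11556 and 17928 CPM and S100a9 was 13940.0, 26812, 12688 and 21149 CPM. Together they took 2.63, 4.47, 2.42 and 3.65% of all counts in those samples. WT SPMs had S100a8 at 2.83, 32.5, 33.9 and 17.4 CPM and S100a9 at 1.49, 41.5, 41.1 and 24.6 CPM. No SPM sample of either genotype gave the pair more than 0.0152% of its counts. WT lung macrophages had S100a8 at 25.9, 20.6, 14.3, 15.4 and 0.302 CPM, the last in the library labelled replicate 5. The monocyte values did not overlap with those of either macrophage group, while the SPM and lung ranges overlapped.

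In the fit across all cell types (edgeR quasi-likelihood test, TMM scaling), S100a8 was 326-fold higher in WT monocytes than in WT SPMs (log2 difference 8.35, SE 1.30, adjusted p = 9.224e-06). S100a9 was 300.2-fold higher (8.23, SE 1.38, adjusted p = 2.687e-05). Against WT lung macrophages the log2 differences were 10.05 (SE 1.25, adjusted p = 1.689e-07 by edgeR) for S100a8 and 9.64 (SE 1.32, adjusted p = 7.392e-07) for S100a9. Between WT SPMs and WT lung macrophages neither subunit passed the edgeR test, at 1.70 (SE 0.91, adjusted p = 0.1051) and 1.41 (SE 0.97, adjusted p = 0.2068). Without the library labelled WT lung replicate 5, S100a8 and S100a9 were at 9.74 and 9.32 for monocytes against lung, and at 1.39 and 1.09 for SPMs against lung, with the same calls. Each cell type was sequenced and counted as its own table, so cell type and table cannot be told apart.

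**Figure D1:**
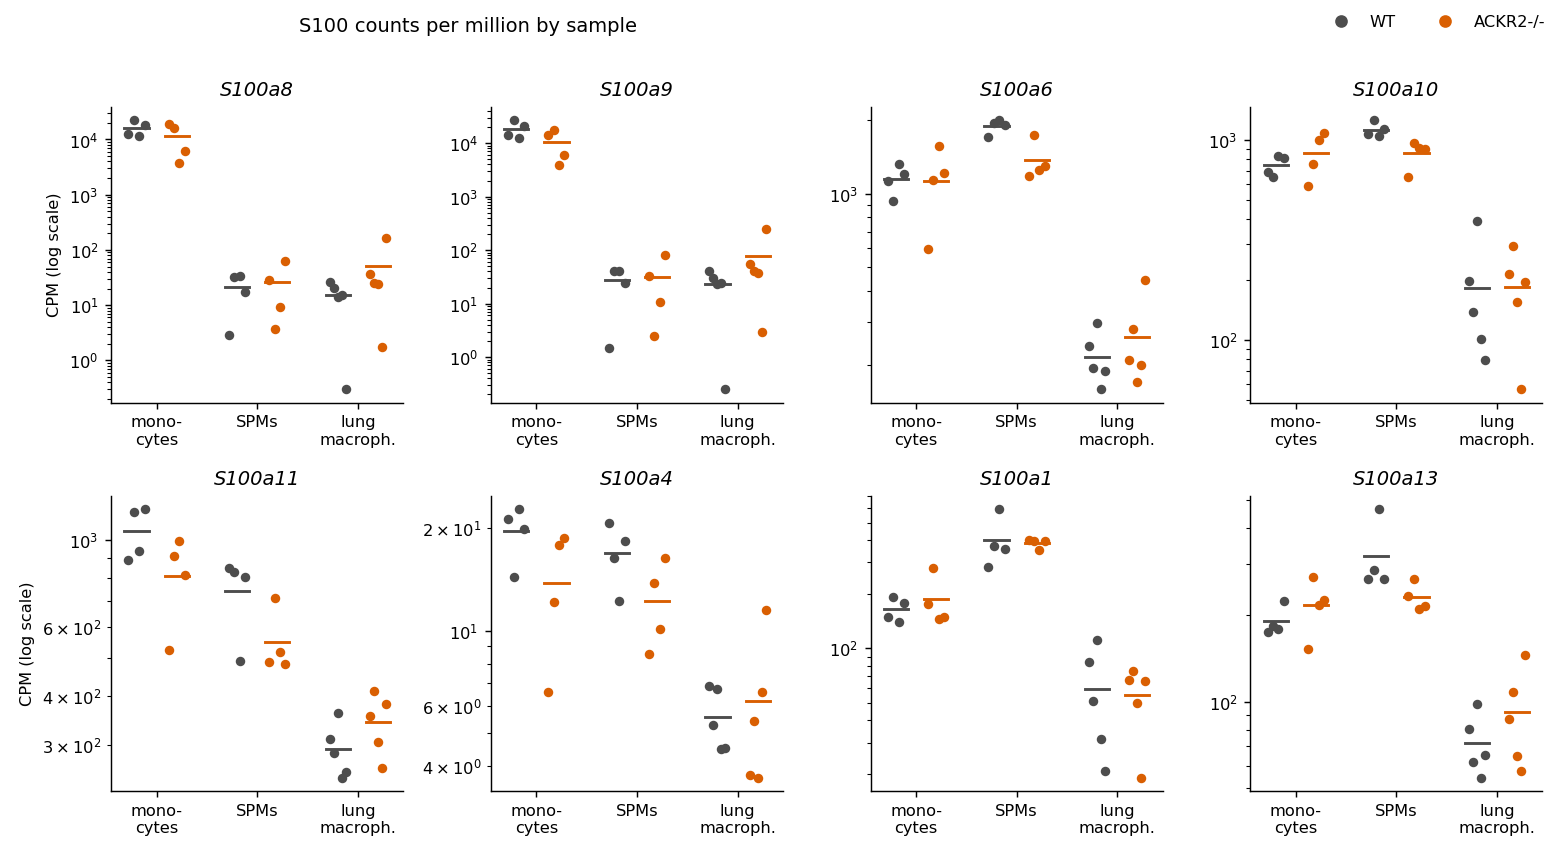
CPM of the 8 S100 genes in each of the 26 samples, on a log axis, with WT and ACKR2-/- samples of each cell type drawn apart and the group mean marked. CPM were scaled within each cell type and not between them. S100a8 and S100a9 lie at or above 3798 CPM in every monocyte sample and at or below 244 CPM in every SPM and lung sample, while the other 6 members span a far narrower range.

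Most of the neutrophil gene list was also higher in monocytes. Against WT SPMs and against WT lung alike, 8 of its 10 markers were called higher in WT monocytes, Mmp9 was called lower, and Retnlg was not called. Over all genes, 20.1% were higher in monocytes than in SPMs and 24.4% higher than in lung. The 10 markers (Ly6g, Mmp8, Mmp9, Cxcr2, Retnlg, Camp, Ltf, Ngp, Lcn2 and Cd177) all had reads in every monocyte sample, and their summed level was 15887 to 44240 CPM in WT and 5562 to 23854 CPM in ACKR2-/- monocytes. Ngp, Camp, Ltf and Lcn2 made up 89.0 to 98.5% of that sum. The same sum was 22.4 to 34.4 CPM in SPMs and 6.25 to 82.5 CPM in lung macrophages. Ngp and Camp, neutrophil granule genes, averaged 14678 ± 7540 and 9055 ± 3642 CPM in WT monocytes, and Camp had 0 reads in 8 of the 10 lung samples. Ly6g, the marker used to exclude neutrophils, stood at 7.46 to 18.2 CPM in WT monocytes, against 0 to 0.440 CPM in WT SPMs. The granulocyte progenitor list (Mpo, Elane, Prtn3, Ctsg and Ms4a3) summed to 16297 to 31846 CPM in WT monocytes and to at most 195 CPM in SPMs and 1.70 CPM in lung. The part of neutrophil or progenitor RNA in the S100a8 and S100a9 levels was not tested.

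**Figure D2:**
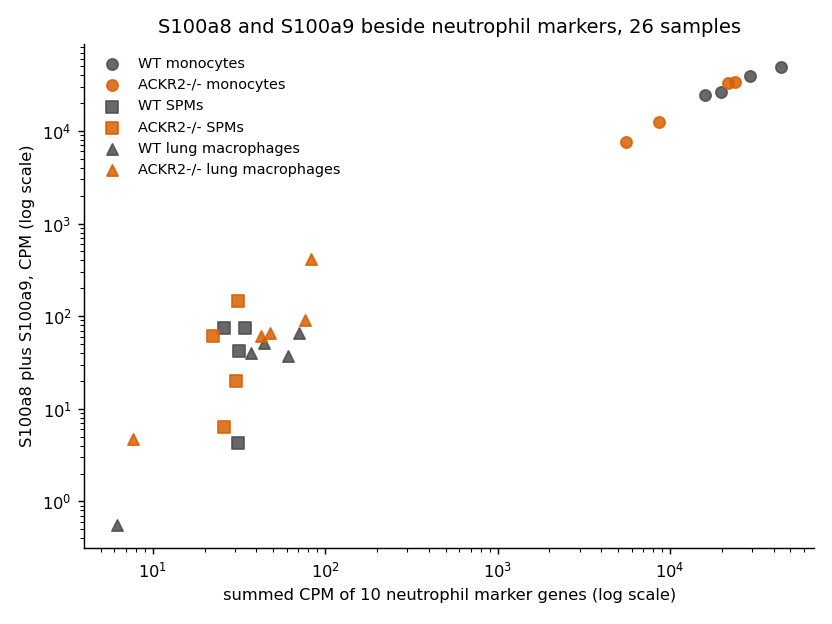
Summed CPM of the 10 neutrophil markers (horizontal, log axis) against the summed CPM of S100a8 and S100a9 (vertical, log axis), 1 point per sample, by cell type and genotype. The monocyte samples form a group at the upper right, from 5562 summed CPM upward, and the 2 lung libraries with the lowest sums (6.25 and 7.69 CPM) are the lowest lung samples of their genotype on the vertical axis too.

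The 6 other members were present in all 3 cell types. Ranked per length within WT monocytes (CPM per kb of exon), S100a9 came first at 35722 ± 12639 (SD, n = 4) and S100a8 second at 23177 ± 7231, with overlapping spreads. They were followed by S100a11 at 2058 ± 312, S100a6 at 839 ± 118, S100a10 at 613 ± 71.5, S100a13 at 266 ± 31.0, S100a1 at 238 ± 36.4 and S100a4 at 33.5 ± 6.25 CPM per kb. In that order, S100a13 and S100a1 lay within their spread of each other.

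In WT SPMs the order per length was S100a11 at 1455 ± 330.3, S100a6 at 1379.7 ± 95.7, S100a10 at 923 ± 76.7, S100a1 at 578 ± 193 and S100a13 at 449.7 ± 136 CPM per kb (SD, n = 4). S100a9 (52.1 ± 36.1), S100a8 (31.2 ± 21.02) and S100a4 (28.9 ± 6.14 CPM per kb) came last and overlapped with each other, as did S100a11 with S100a6 and S100a1 with S100a13. In WT lung macrophages S100a11 was again first at 574 ± 90.7 CPM per kb (SD, n = 5), above S100a6 at 158 ± 39.4 and S100a10 at 149 ± 104, which overlapped. The spreads of each following neighbour, S100a13 (101 ± 24.5), S100a1 (86.1 ± 53.9), S100a9 (45.1 ± 28.1) and S100a8 (22.04 ± 13.8 CPM per kb), also overlapped with the one before. S100a4 was last in all 3 orders, at 9.56 ± 1.98 CPM per kb in lung, when its whole length was used. Over the 282 bases it shares with no gene it would stand at 69.3 ± 12.9 CPM per kb in WT monocytes and 19.8 ± 4.11 in WT lung macrophages, still last, and at 59.9 ± 12.7 in WT SPMs, above S100a9 and S100a8. Without the library labelled WT replicate 5, the lung order changed only for the overlapping S100a10 (170.3 ± 107 CPM per kb) and S100a6 (163 ± 43.7), which traded places.

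The binding partners of annexins differed between cell types in size and, in one case, in direction with the scaling. S100a10, which lacks working calcium-binding loops and pairs with annexin A2, was 690.0, 648, 823 and 809 CPM in WT monocytes and 1062, 1249, 1043 and 1123 CPM in WT SPMs. In WT lung macrophages it was 197, 138, 391, 101 and 79.0 CPM. Every SPM value was above every monocyte value, and every monocyte value above every lung value. S100a11, a partner of annexin A1, was 890.2, 1178, 939.5 and 1199.5 CPM in WT monocytes and 851, 828, 492 and 803 CPM in WT SPMs. Lung values of S100a11 ran from 248 to 363 CPM, below all the others. By these CPM S100a11 was higher in WT monocytes than in most WT SPM samples. The fit across all cell types, with TMM scaling, gave the opposite direction (-0.66 on the log2 scale for monocytes against SPMs).

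S100a6, or calcyclin, was 1123, 937, 1321 and 1206 CPM in WT monocytes, 1697, 1945, 1995 and 1907 CPM in WT SPMs, and 159 to 297 CPM in WT lung macrophages, with no overlap between any 2 of the 3. S100a4, the myosin partner, had low counts throughout, at 14.4 to 22.7 CPM in WT monocytes, 12.2 to 20.7 CPM in WT SPMs and 4.51 to 6.89 CPM in WT lung macrophages. Reads in the 51.7% of its exonic bases that it shares with Gm42674 may have been dropped as ambiguous, so these values can be undercounts. S100a1 was 140 to 194 CPM in WT monocytes and 283 to 594 CPM in WT SPMs, above the 20.95 to 111 CPM of WT lung macrophages. Its divergent neighbour S100a13 was 175 to 223 CPM in WT monocytes, 266 to 466 CPM in WT SPMs and 54.4 to 98.2 CPM in WT lung macrophages.

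With TMM scaling, 2 members were higher (S100a8 and S100a9) and 6 lower in WT monocytes than in WT SPMs, against 20.1% of all 17792 genes higher and 21.8% lower. S100a1 was lower by 5.46-fold, S100a13 by 3.80-fold, S100a6 by 3.70-fold and S100a10 by 3.39-fold (edgeR adjusted p from 1.477e-06 to 0.0007664). S100a4 was lower by 1.94-fold (adjusted p = 0.0192, edgeR) and S100a11 by 1.58-fold (adjusted p = 0.01943). Scaling by total counts instead moved the median of all genes from 0.00 to 0.96 on the log2 scale and the share of calls that were higher in monocytes from 47.9 to 83.8%. It left 3 members called lower (S100a1, S100a6 and S100a13) and the same 2 higher, against 46.9% of genes higher and 9.08% lower. Under that scaling S100a4 and S100a11 turned to 0.19 (edgeR adjusted p = 0.675) and 0.47 (adjusted p = 0.06011), so their direction between monocytes and SPMs rests on the scaling.

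Against WT lung macrophages all 8 members were higher in WT monocytes, where 24.4% of genes were higher and 39.5% lower. Outside the calprotectin pair the folds ran from 2.67 for S100a13 to 5.35 for S100a6 (edgeR adjusted p at most 0.001232). In WT SPMs 6 members were higher than in lung, against 23.2% of genes higher and 39.1% lower. S100a6 was 19.8-fold, S100a1 15.3-fold, S100a10 14.1-fold, S100a13 10.1-fold, S100a4 6.82-fold and S100a11 5.74-fold higher (edgeR adjusted p at most 4.521e-08). With total counts the same 6 remained higher, at log2 differences of 1.30 to 3.06, against 9.47% of genes higher and 66.4% lower. That scaling moved the median of all genes from -0.41 to -1.62 and the share of calls that were higher in SPMs from 37.2 to 12.5%, while for monocytes against lung it moved the share from 38.2 to 35.5%. Without the library labelled WT lung replicate 5, the same numbers of members were called, 8 and 6, and outside the calprotectin pair the log2 differences ran from 1.27 to 2.39 for monocytes against lung and from 2.49 to 4.28 for SPMs against lung. The ACKR2-/- samples, compared in the same fit of all 26 samples and so with its shared scaling and spread, gave the same number of members in each direction in all 3 pairs of cell types.

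**Figure D3:**
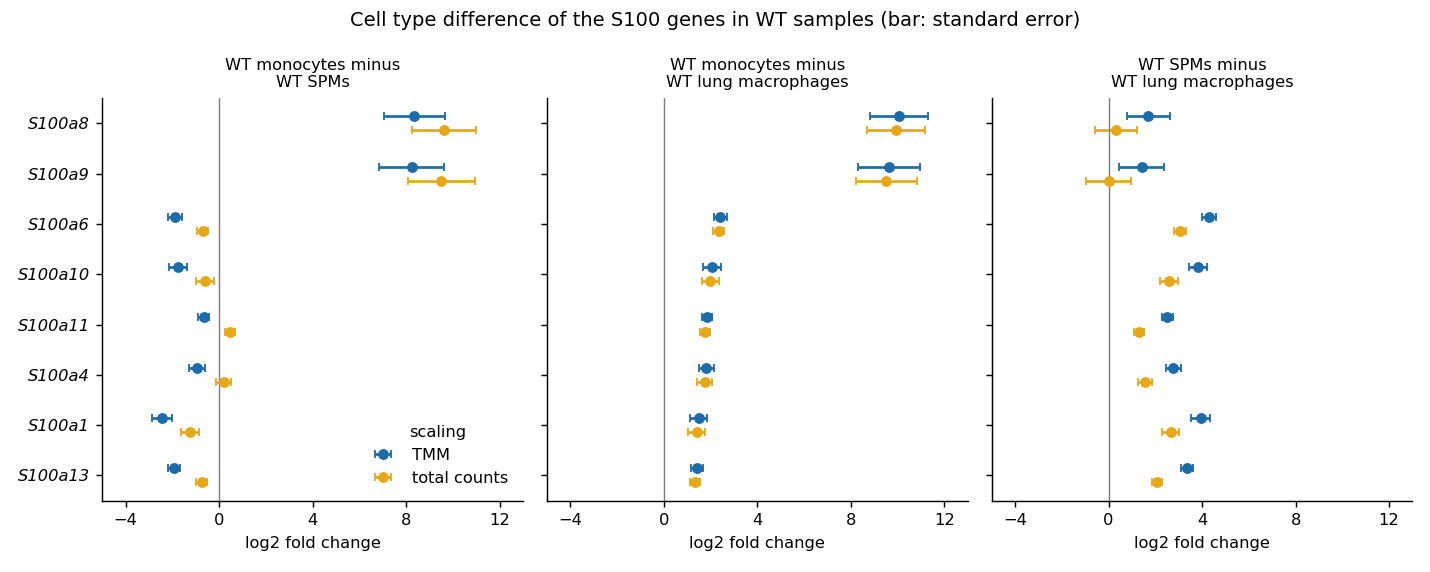
Log2 difference between WT cell types for the 8 S100 genes, with bars of 1 standard error, under TMM scaling and under total-count scaling. S100a8 and S100a9 lie above 8 for monocytes against SPMs under both scalings, and S100a4 and S100a11 change sign there, from -0.95 to 0.19 and from -0.66 to 0.47.

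The question of the study is the effect of genotype within each cell type, and no S100 member passed the test there. In ACKR2-/- monocytes S100a8 was 18891, 16393, 3798 and 6309 CPM, and S100a9 was 13891, 17732, 3852 and 6127 CPM. Replicates 3 and 4 were below every WT sample, replicates 1 and 2 lay within the WT range, and the genotypes overlapped. The spread was wider than in WT, with a highest-to-lowest ratio of 4.97 for S100a8 against 1.93. S100a8 averaged 11348 ± 7410.4 CPM against 16085 ± 5018 in WT (SD, n = 4 each), a log2 difference of -0.50 (SE 0.45, edgeR adjusted p = 0.5961). S100a9 averaged 10400.4 ± 6508 against 18647 ± 6598 CPM, a difference of -0.84 (SE 0.44, edgeR adjusted p = 0.3522).

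The same monocyte samples ranked lowest for the neutrophil list: ACKR2-/- replicates 3 and 4 had summed levels of 5562 and 8616 CPM, and WT replicate 2, with the highest S100a8, had the highest sum at 44240 CPM. All 10 neutrophil markers had negative log2 differences, with a median of -1.06, and none was called by edgeR (smallest adjusted p = 0.0527, Lcn2). The 5 granulocyte progenitor markers were also all negative, with a median of -0.25 and none called. A T cell list moved the other way. Its summed level was 3.34 to 5.20 CPM in WT and 62.1 to 113 CPM in ACKR2-/- monocytes, and 9 of its 10 markers (Cd3d, Cd3e, Cd3g, Trbc2, Cd2, Lck, Cd4, Cd8a, Cd5 and Thy1) were called higher. Beside these lists, edgeR called 1.27% of all genes tested in monocytes, in either direction. The part of neutrophil, granulocyte progenitor and T cell transcripts in the S100 values was not tested.

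Among the other members in monocytes, S100a4 was 21.3, 14.4, 22.7 and 19.9 CPM in WT and 6.62, 12.1, 17.8 and 18.6 CPM in ACKR2-/-, and S100a11 was 525, 908, 995 and 813 CPM in ACKR2-/-. Replicate 1 was the lowest of the ACKR2-/- samples for both, and the genotypes overlapped. Their log2 differences were -0.50 (SE 0.28, edgeR adjusted p = 0.3726) and -0.38 (SE 0.20, adjusted p = 0.3621). S100a6 (-0.02), S100a13 (0.19), S100a1 (0.18) and S100a10 (0.20) were within 1 or slightly more than 1 standard error of 0. Of the 8 members, 5 differences were negative and 3 positive, with a median of -0.20 against 0.00 over all genes tested. A gene was called where its adjusted p was below 0.05 and its log2 difference beyond 0.5 in either direction. edgeR called 0 of the 8, and 1.27% of the 13246 genes tested. DESeq2 called 0 members and 540 genes in all, and 0 members had an unadjusted p under 0.05, where 17.0% of genes did. No member had genotypes without overlap, a pattern that 10.2% of genes tested showed.

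In SPMs the members other than the calprotectin pair and S100a1 lay lower in ACKR2-/- samples without passing the test. S100a10 was 647, 959.7, 909.9 and 895 CPM in ACKR2-/- SPMs, below all 4 WT values. It averaged 853 ± 140.1 CPM against 1119 ± 93.0 in WT (SD, n = 4 each), a log2 difference of -0.39 (SE 0.20, edgeR adjusted p = 0.7881). It was the only member whose genotypes did not overlap in SPMs, which 3.4% of genes tested also showed. S100a6 was 1182, 1738, 1255 and 1298 CPM in ACKR2-/- SPMs, with only replicate 2 inside the WT range, and differed by -0.46 (SE 0.20, unadjusted p = 0.04335, adjusted p = 0.7881 by edgeR).

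S100a11 (489, 710.4, 518 and 483 CPM) and S100a13 (232, 266, 210.5 and 214 CPM) in ACKR2-/- SPMs differed from WT by -0.43 (SE 0.24) and -0.48 (SE 0.23). S100a4 (8.51, 13.8, 10.1 and 16.3 CPM) differed by -0.47 (SE 0.26) and S100a1 (399, 393, 353 and 397 CPM) by -0.06 (SE 0.24). WT replicate 3 stood apart from the other WT SPM samples in several of these genes, with the lowest S100a11 (492 CPM) and the highest S100a1 (594 CPM) and S100a13 (466 CPM). S100a8 in ACKR2-/- SPMs was 28.2, 3.78, 9.35 and 63.3 CPM, spread across the whole WT range and beyond it, and differed by 0.28 (SE 0.82, edgeR adjusted p = 0.9454). S100a9 differed by 0.24 (SE 0.96, edgeR adjusted p = 0.9616).

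The summed neutrophil list stayed between 22.4 and 34.4 CPM in SPMs, but there Mmp9, a gene also called higher in SPMs than in monocytes, made up 19.1 to 86.7% of the sum. Without Mmp9, a sum taken after its values were seen, the list gave 4.17, 13.8, 12.7 and 11.3 CPM in WT and 16.6, 4.55, 6.96 and 25.3 CPM in ACKR2-/- SPMs. The 3 samples lowest for S100a8 (WT replicate 1, ACKR2-/- replicates 2 and 3) were the 3 lowest of that sum and had 0 Ly6g reads, against 4 to 21 in the other 5. ACKR2-/- replicate 4, the highest for S100a8, was the highest for Lcn2 (7.19 CPM), Camp (20 reads) and Ly6g (21 reads). It was not the highest for Ngp (0.673 CPM, against 1.32 CPM in WT replicate 3) or Ltf (0.566 CPM, against 1.03 CPM in WT replicate 4). Its Mmp9 was low, at 5.98 CPM against 27.1 CPM in WT replicate 1. The part of neutrophil RNA in the SPM values was not tested.

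In all, 6 SPM differences were negative and 2 positive, with a median of -0.41 against -0.05 over all genes. edgeR and DESeq2 each called 0 of 8 members, and 1 had an unadjusted p under 0.05. Of the 12997 genes tested edgeR called 0.0462%, DESeq2 called 30, and 5.46% had an unadjusted p under 0.05.

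In lung macrophages the calprotectin pair had the largest differences and the widest spread. S100a8 was 36.5, 24.8, 23.9, 1.77 and 166 CPM in ACKR2-/- samples, and S100a9 was 54.3, 41.5, 37.3, 2.94 and 244 CPM. Replicate 5 stood above every other lung sample and replicate 4 below all but the library labelled WT replicate 5. S100a8 averaged 50.5 ± 65.6 against 15.3 ± 9.58 CPM (SD, n = 5 each), a log2 difference of 1.72 (SE 1.02, edgeR adjusted p = 0.9999). Without the library labelled WT replicate 5 the difference was 1.43 (SE 0.87), and without ACKR2-/- replicate 5 it was 0.52. S100a9 gave 1.69 (SE 1.04), 1.39 (SE 0.84) and 0.54 in the same 3 fits. In ACKR2-/- replicate 5 the neutrophil list summed to 82.5 CPM, the highest of the lung samples but close to the 76.2 CPM of replicate 1, whose S100a8 was 36.5 CPM. Of that list Retnlg alone was 43.1 CPM in replicate 5 and at most 8.64 CPM in the other lung samples.

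The 6 other members in ACKR2-/- lung macrophages spanned 170 to 444 CPM for S100a6, 56.8 to 293 CPM for S100a10, 263 to 413 CPM for S100a11, 57.7 to 145 CPM for S100a13, 19.1 to 75.2 CPM for S100a1 and 3.70 to 11.5 CPM for S100a4. All of these ranges overlapped with WT. Log2 differences ran from -0.11 for S100a1 to 0.36 for S100a13, and from -0.32 to 0.34 for the same genes without the library labelled WT replicate 5. In the library labelled WT replicate 3, which had the high H2-Ab1, S100a10 (391 CPM) and S100a1 (111 CPM) were the highest of the lung samples. Of the 8 members 7 differences were positive and 1 negative, with a median of 0.25 against -0.04 over all genes.

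edgeR and DESeq2 each called 0 of 8 members in lung, 0 had an unadjusted p under 0.05, and 0 had genotypes without overlap. Of the 16824 genes tested, edgeR called 0% and 2.97% had an unadjusted p under 0.05, DESeq2 called 18, and 0.446% had no overlap. Without the library labelled WT replicate 5, 0 members were called.

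**Figure D4:**
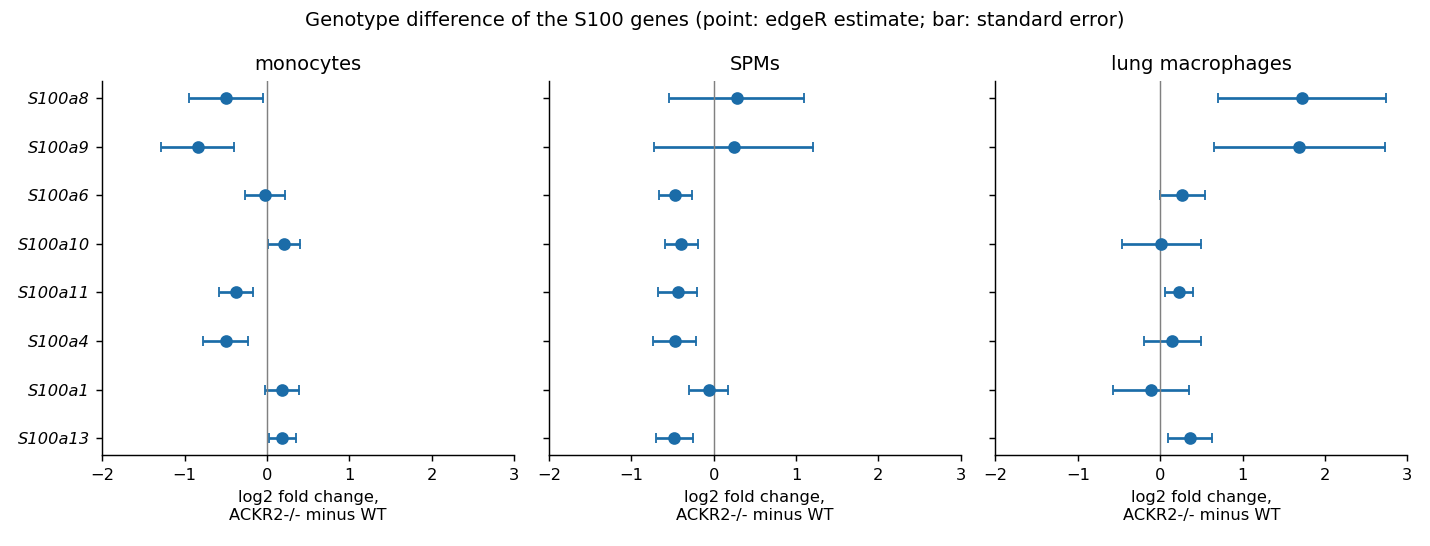
Log2 difference of ACKR2-/- minus WT for the 8 S100 genes in monocytes, SPMs and lung macrophages, with bars of 1 standard error. The medians are -0.20, -0.41 and 0.25, and the lung values of S100a8 (1.72) and S100a9 (1.69) have the longest bars together with those of the pair in SPMs.

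The genotype differences themselves were compared between cell types by an interaction term in edgeR. For monocytes against SPMs, 0 of 8 members passed an adjusted p of 0.05 (smallest 0.7318, S100a13), where 0.253% of genes did. For monocytes against lung 0 passed (smallest 0.8216, S100a11; 0.152% of genes), and for SPMs against lung 0 passed (smallest 0.7943, S100a13; 0.0393% of genes). Without the library labelled WT lung replicate 5, 0 members passed in either comparison with lung. Unadjusted p-values under 0.05 were found for 0, 1 and 1 members. The share of all genes under that cut was not counted, so these counts cannot be judged against it.

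Ratios between neighbouring members are given as descriptions that were looked at after the levels were known. S100a8 and S100a9 varied together, so that in WT monocytes their read ratio spanned 1.09-fold while the genes themselves spanned 1.93-fold and 2.11-fold. S100a8 reads per S100a9 read were 0.899, 0.833, 0.911 and 0.848 in WT monocytes and 1.36, 0.924, 0.986 and 1.03 in ACKR2-/- monocytes, with no overlap. In 9 of the 10 lung samples the ratio was 0.597 to 0.679, and it was 1.2 in the library labelled WT replicate 5, where both genes had few reads. S100a1 reads per S100a13 read were 1.07, 1.28, 1.27 and 1.34 in WT SPMs and 1.72, 1.48, 1.68 and 1.85 in ACKR2-/- SPMs, again with no overlap. Neither ratio was tested between genotypes, and the share of other gene pairs without overlap was not counted. Among single genes tested, 10.2% in monocytes and 3.4% in SPMs had no overlap, but a share of single genes cannot stand in for that of ratios. In monocytes the ratio of S100a1 to S100a13 overlapped, at 0.779 to 1.06 in WT and 0.667 to 1.16 in ACKR2-/-. In lung it was less even, at 0.322 to 1.13 in WT, a 3.52-fold span where S100a13 alone spanned 1.81-fold, and 0.331 to 0.767 in ACKR2-/-. The lowest lung ratios were those of the library labelled WT replicate 5 and of ACKR2-/- replicate 4.

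The genes whose centred log2 profile lay closest to each member over the 26 samples were ranked among 17791 others by root mean square difference. S100a8 and S100a9 were each other's nearest gene at 0.408, far closer than the next, Ltf for S100a8 (1.53) and Lcn2 for S100a9 (1.61), both neutrophil granule genes. S100a13 had the closest neighbours of any member, Polr2l (0.192), 2410015M20Rik (0.197) and Atp5j2 (0.218). S100a11 was nearest to Gm10709 (0.296) and Ap2s1 (0.312), S100a4 to Ap2s1 (0.391) and 1600002K03Rik (0.393), and S100a6 to Atp5k (0.353) and Gm16418 (0.358). S100a10 was nearest to Rps27l (0.443) and had S100a6 at 0.448, and S100a1 was nearest to Vkorc1 (0.470) with S100a10 next (0.504). These distances share the library scaling and are dominated by the differences between cell types.

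The 10 other S100 genes looked for (S100a2, S100a3, S100a5, S100a7a, S100a7l2, S100a14, S100a16, S100b, S100g and S100z) were scarce. None had enough reads to be tested between genotypes in monocytes or SPMs, and 3 were tested in lung with none called: S100a16 (-0.07), S100g (0.19) and S100a14 (0.82). S100a16 was 49.0 ± 29.6 CPM in WT lung macrophages (SD, n = 5) and at most 0.330 CPM in any monocyte or SPM sample. S100g, a calcium-binding protein of transporting epithelia, was 7.14 ± 4.47 CPM in WT lung macrophages and at most 0.538 CPM in any monocyte or SPM sample. Under both scalings they were called lower in WT monocytes and in WT SPMs than in WT lung, beside the Sftpc values given above. S100a5, called higher in SPMs than in lung with TMM scaling and not with total counts, was at most 0.704 CPM in any WT SPM sample.

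Receptors of extracellular S100 proteins form a list of 9 genes. Between genotypes, 1 of 8 tested was called in monocytes, 0 of 7 in SPMs and 0 of 9 in lung, beside 1.27%, 0.0462% and 0% of all genes. The one was Cd33, a sialic acid-binding lectin described as a receptor of S100A9, at 28.8 ± 2.03 CPM in WT and 19.6 ± 1.48 CPM in ACKR2-/- monocytes (SD, n = 4 each) with no overlap. Its log2 difference was -0.56 (SE 0.11, adjusted p = 0.0387 by edgeR and 0.002372 by DESeq2). Leaving out single libraries moved the difference between -0.60 and -0.51 and the edgeR adjusted p between 0.03758 and 0.1447. The call was lost in 6 of those 8 fits, those without any 1 of the 4 WT replicates or without ACKR2-/- replicate 2 or 4.

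Between cell types and with TMM scaling, WT monocytes had 1 receptor higher than WT SPMs, Emb (1.26 on the log2 scale), a basigin relative that binds S100a8 and S100a9, and 5 lower: Cd36, Ly96, Alcam, Tlr4 and Bsg. Tlr4 and its co-receptor Ly96, which sense calprotectin as a danger signal, were lower by 1.37 and 2.63 on the log2 scale. With total counts 3 receptors were higher (Emb, Cd33 and Ager) and 3 lower (Cd36, Ly96 and Alcam), Tlr4 was at -0.25 and no longer called, and Bsg turned from -0.77 to 0.45. Over all genes 20.1% were higher and 21.8% lower with TMM scaling, and 46.9% and 9.08% with total counts. Against WT lung, under both scalings, 1 was higher in monocytes (Emb, 2.38) and 3 lower, among them Ager, the receptor for advanced glycation end products (-7.00). There, 24.4% of all genes were higher in monocytes and 39.5% lower with TMM scaling. Ager was 161 ± 85.0 CPM in WT lung macrophages and is also a gene of alveolar epithelium. WT SPMs had 5 receptors higher and 4 lower than lung with TMM scaling, and 2 higher (Ly96 and Alcam) and 4 lower with total counts. For that pair 23.2% of all genes were higher and 39.1% lower with TMM scaling, and 9.47% and 66.4% with total counts.

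The intracellular partners of S100 proteins, a list of 13, had 0 of 11 tested called between genotypes in monocytes by edgeR, 0 of 12 in SPMs and 0 of 13 in lung. Of all genes tested, 1.27%, 0.0462% and 0% were called in the same order. Anxa2, the partner of S100a10, was 1682 ± 105 CPM in WT monocytes, 1464 ± 364 CPM in WT SPMs and 844 ± 141 CPM in WT lung macrophages. Anxa1, the partner of S100a11, was 2029 ± 508, 445 ± 155 and 331 ± 111 CPM in the same groups. With TMM scaling, WT monocytes had 2 partners higher (Anxa1, 1.01, and Anxa6, 0.67) and 5 lower than WT SPMs, among them Anxa2 (-0.98) and Il1a (-3.46). Over all genes 20.1% were higher and 21.8% lower. With total counts 7 were higher and 1, Cyba, lower, Anxa1 was at 2.22, and Anxa2 turned to 0.24 and was not called. The 7 of 13 stand beside 46.9% of all genes higher under that scaling. Against WT lung, monocytes had 6 higher and 2 lower with TMM scaling and 5 higher and 2 lower with total counts. The 2 were Il1a and Fgf1 each time, whose export S100a13 serves. For monocytes against lung, 24.4% of all genes were higher and 39.5% lower with TMM scaling. WT SPMs had 6 higher and 4 lower than WT lung with TMM scaling, but 3 higher (Cyba, Ahnak and Anxa2) and 8 lower with total counts, where 66.4% of all genes were lower. With TMM scaling 23.2% of all genes were higher in SPMs and 39.1% lower.

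C/EBP factors and Stat3, regulators of the calprotectin genes, gave 5 genes with none called between genotypes in any cell type. Of all genes tested, edgeR called 1.27% in monocytes, 0.0462% in SPMs and 0% in lung. In monocytes 4 of the 5 differences were negative, with a median of -0.43. Cebpe, a factor of late granulocyte maturation, was 120 ± 47.3 CPM in WT monocytes and 3.79 ± 1.34 CPM in WT SPMs, and was called higher in monocytes (3.81 on the log2 scale). Cebpd was also called higher there (1.47), and with total counts Cebpa and Stat3 were as well. Against WT lung macrophages Cebpe was higher in WT monocytes, while Cebpb (-3.13) and Stat3 (-1.24) were lower, as they were with total counts. Over this list WT SPMs had 1 gene higher, Cebpe, under both scalings, and 3 lower than lung with TMM scaling or 4 with total counts. The shares of all genes given above for the same pairs of cell types stand beside these counts.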

How the data were processed

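Per the submitters' processing notes, HISAT2 2.0.5, featureCounts 1.5.0-p3, DESeq2 and the mm10 build were used, with no role stated for the lung table. The deposited values were raw read counts per gene for each sample, made by the authors. The lung table ended in 5 summary lines holding 56.3% of its counts, and these were removed first. Groups came from the sample labels.

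Counts were analysed in R 4.3.3 with edgeR 4.0.16 (filterByExpr with a minimum count of 10 and minimum total of 15, TMM, quasi-likelihood test). Genotypes were compared within each table. Cell types and interactions were tested in 1 fit of all 26 samples over the 50104 shared genes. A call needed a Benjamini-Hochberg adjusted p under 0.05 and, except for interactions, a log2 difference beyond 0.5 either way. DESeq2 1.42.0, total-count scaling, no filter, a replicate block and leaving out each library were alternatives. The genes named were the 8 members, the members of the fixed lists that were called or are direct partners, and the nearest profiles. The members and lists were chosen with earlier results of these data known. No 2 libraries of the same genotype and cell type agreed within sampling noise, and pairs across genotypes or cell types were not compared. The scripts were tested on simulated data.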

Additional observations from a re-analysis of the deposited data

Results flagged for a closer look

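Member levels were examined for 1 sample far from the rest of its group in 48 groups of 4 or 5 samples, and 6 were found. Chance gives about 1 in 20 groups. S100a8 in ACKR2-/- lung macrophages replicate 5 was 166 CPM, with the next highest at 36.5 CPM, and S100a9 in the same library was 244 CPM, with the next at 54.3 CPM. These 2 come from 1 library and are not independent.

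The remaining 4 were in SPMs. WT replicate 3 had the lowest S100a11 of its group, 492 CPM against 803 CPM for the next, and the highest S100a13, 466 CPM against 287 CPM. ACKR2-/- replicate 2 had the highest S100a11 of its group, 710.4 CPM against 518 CPM. ACKR2-/- replicate 3 had the lowest S100a1, 353 CPM against 393 CPM for the next, in the group where that gene varied least. Their causes were not tested.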

How the results depend on the processing

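Of 880 recomputed values, 846 kept their direction and side of the threshold, 24 turned in sign, 8 lost and 1 gained a call and 1 count moved. No member was called between genotypes under any alternative (smallest adjusted p 0.138 in monocytes, 0.581 in SPMs and 0.808 in lung, by edgeR or DESeq2). Members called between WT monocytes and WT SPMs fell from 8 to 5 with total counts, where S100a4 turned to 0.19, S100a11 to 0.47 and S100a10 lost its call at -0.59. Total counts also turned S100a6 in monocytes to 0.067 and S100a1 in SPMs to 0.087. Leaving out 1 library gave 6 to 8 members called between monocytes and SPMs, with S100a4 from -1.07 to -0.82 (call lost without WT monocyte replicate 2 or WT SPM replicate 4) and S100a11 from -0.81 to -0.57 (lost without WT monocyte replicate 1 or 3 or WT SPM replicate 2 or 4). S100a11 also lost its call with no filter (-0.60, adjusted p = 0.0758 by edgeR), and DESeq2 called S100a8 higher in SPMs than in lung (1.84, adjusted p = 0.0485).

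Genotype differences near 0 turned sign when 1 library was left out, over ranges of -0.21 to 0.19 for S100a6 and -0.057 to 0.30 for S100a1 in monocytes, -0.19 to 0.20 for S100a1, -0.65 to 0.64 for S100a8 and -0.81 to 0.63 for S100a9 in SPMs, and -0.32 to 0.26 for S100a1, -0.22 to 0.53 for S100a10 and -0.17 to 0.29 for S100a4 in lung. In lung, S100a8 ran from 0.52 to 2.05 and S100a9 from 0.54 to 2.02, lowest without ACKR2-/- replicate 5. The cause was not tested.

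Same-numbered samples did not consistently deviate together (correlations from -0.118 to 0.643, not all over 0.1), so the numbers were not taken as pairs. Lung replicate 1 (0.643) and monocyte replicate 2 (0.307) did match their own number best. A replicate block turned S100a9 in SPMs to -0.036 and called 0 members in each cell type. The lowest counts, those of S100a8 and S100a9 in the lung library labelled WT replicate 5, limit what can be read from that library.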
